A study of Danio rerio with 15 samples.

Results

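Müller glia sorted from zebrafish retinas at 16 hours post-lesion (hpl) were compared with Müller glia sorted at 8 hpl, 3 arrays against 3, out of 15 arrays at 5 times. The arrays were chosen by the time in their titles and by no measured value. Both groups came from 5- to 6-month old fish of the line Tg(gfap:GFP)mi2002, in which the gfap promoter drives green fluorescent protein (GFP) in Müller glia. At 16 hpl as at 8 hpl the retinas had been lesioned with light and dissociated with enzymes, and GFP+ cells were isolated by fluorescence-activated cell sorting. The 0 hpl fish were not treated with light. They stood outside the comparison and gave the starting level of the preceding step. Each array held 1 biological replicate, and whether a replicate pooled fish is not given in the sources used here. The clock time of sampling is not given either, so hours after the lesion and time of day cannot be told apart.

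Müller glia are the radial glia of the retina. They support photoreceptors and neurons, recycle retinoids and take up neurotransmitters. In zebrafish, unlike in mammals, they answer the loss of photoreceptors by returning to a progenitor-like state, entering the cell cycle and dividing to give neuronal progenitors. Before the first division, reactive glia switch on stress and cytokine genes, transcription factors such as Ascl1a, and the machinery that makes ribosomes and proteins.

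Marker genes were compared between the 2 sorted groups. The series holds no unsorted array, so enrichment by the sort was not tested. The 11 named Müller glia markers, which include the glutamine synthetase genes glula and glulb and the retinaldehyde carrier rlbp1a, had a summed linear value of 10562 to 11561 on the 16 hpl arrays and of 11312 to 13748 on the 8 hpl arrays. One of them, cyp26a1, was called lower at 16 hpl and none higher. The largest positive change among them was in glulb (0.63, not called). Transcripts of photoreceptors and other neurons were present in both groups and are described below. Microglia, pigment epithelium, red blood cells, endothelium, oligodendrocytes and lens had between 1 and 3 named markers each, too few to describe those cells. Among the 8 hpl arrays, replicate 3 stood apart. Its correlation over all probe sets was 0.973 with replicate 1 and 0.981 with replicate 2, against 0.988 between the other two, while the 16 hpl arrays correlated at 0.990 to 0.991. An array-weight fit gave it 0.374, the lowest weight of the 15 arrays. Many results that rest on it are therefore also given without it, or with their range over the alternatives tried. Hybridisation controls, spiked in at fixed amounts, differed by -0.09 on the log2 scale between 16 and 8 hpl (two-sided exact permutation p = 0.7). The array medians differed by 0.01 (p = 1), the lower quartiles by -0.05 (p = 0.2) and the upper quartiles by 0.11 (p = 0.2) by the same exact permutation test, for which 0.1 is the smallest p that 3 against 3 arrays allow.

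The comparison asked which transcripts changed over these 8 hours. Expression was the deposited log2 RMA value, and a probe set was called when its Benjamini-Hochberg adjusted p from limma was under 0.05 over the 15502 tested. In all 1332 probe sets were called, 8.59% of those tested. Of these 849 were higher at 16 hpl (5.48%) and 483 lower (3.12%). The change reached 2-fold in 178 of the rises and 199 of the falls. The 16 hpl arrays lay wholly above or below the 8 hpl arrays for 1312 of the called probe sets, and for 3660 of all probe sets (23.6%). How the calls divided between rises and falls changed with 1 array and with the scaling. Without 8 hpl replicate 3 there were 562 rises and 487 falls, and quantile normalization applied again gave 657 and 594. Scaling on the hybridisation controls gave 612 and 234.

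Gene names were taken from the authors' deposited table, which lists probe sets that changed at least 2-fold against 0 hpl at some time on these same samples. Counts of named genes therefore describe a selected set. Of 1808 genes with a name beyond a clone or locus label, 464 were higher at 16 hpl (25.7%) and 125 lower (6.91%), with a median log2 change of 0.33, against a median of -0.00 over all probe sets. The counts of the gene lists below are to be read against these shares. Another 426 called probe sets, 212 higher and 214 lower, lie outside that table and have no name here. RMA values carry no detection call, and where the lower group mean was below the array median of 4.52 no fold is given.

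The largest rise among named genes was in ciarta, a repressor in the circadian clock. Its log2 values were 8.87, 9.09 and 8.66 at 16 hpl, against 4.73, 5.51 and 5.48 at 8 hpl. No array of one time came near the other, and the log2 change was 3.64 ± 0.29 (SE, n = 3 per group, limma adjusted p = 6.01e-06), a 12.4-fold rise. Next came mmp9, a matrix metalloproteinase secreted by reactive Müller glia, with 11.44, 11.55 and 11.19 at 16 hpl, against 9.69, 7.52 and 6.58 at 8 hpl. The 16 hpl arrays agreed closely, while those at 8 hpl were spread over more than 3 units, with replicate 3 the lowest. The change was 3.46 ± 0.49 (11-fold, adjusted p = 0.000546), and 2.79 without 8 hpl replicate 3. Values of col15a1, a collagen XV chain, were 6.30, 6.32 and 7.11 at 16 hpl, against 3.75, 2.85 and 3.60 at 8 hpl. All 8 hpl arrays were below the array median, and the change was 3.17 ± 0.29 (adjusted p = 1.91e-05). A probe set under the related symbol col15a1b moved the other way, by -0.54 ± 0.15 (adjusted p = 0.0348).

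**Figure D1:**
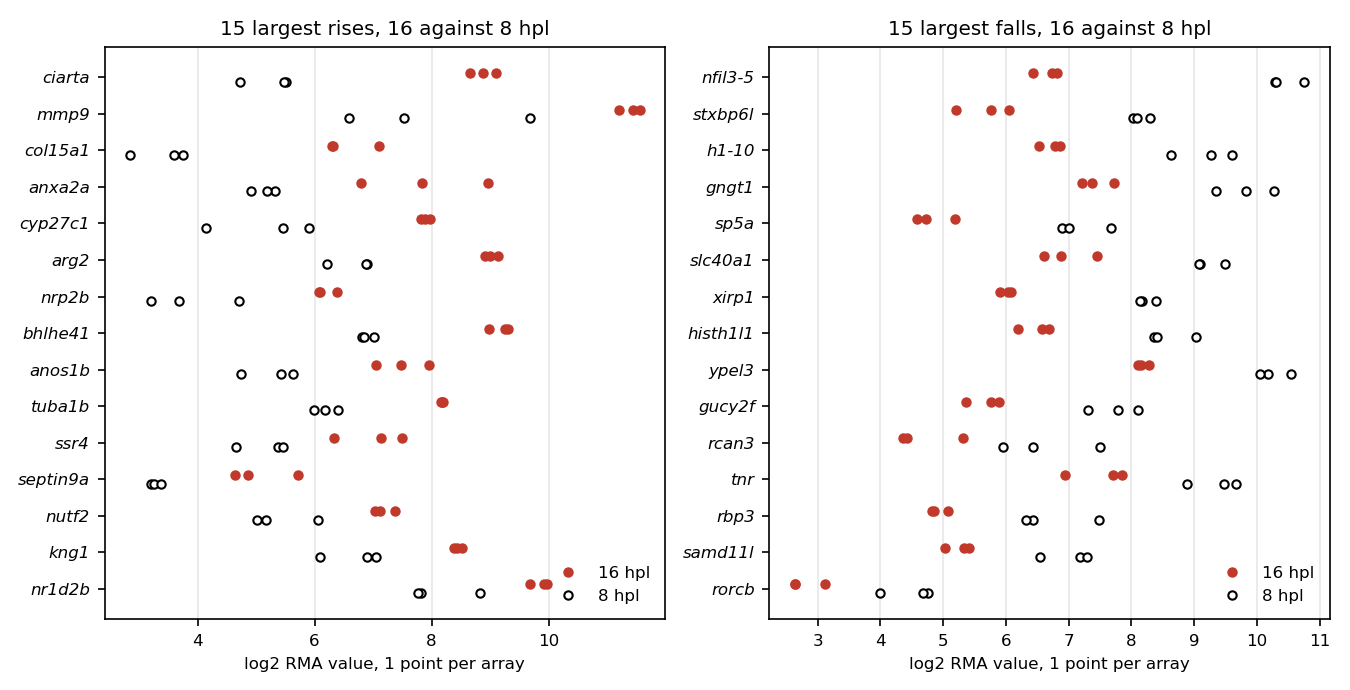
Log2 RMA value (x axis) of the 15 named genes with the largest rises (left) and the 15 with the largest falls (right), 1 point per array, 16 hpl filled and 8 hpl open. In each gene shown the 3 arrays at 16 hpl lie apart from the 3 at 8 hpl, from 8.66 or more against 5.51 or less for ciarta to 6.81 or less against 10.29 or more for nfil3-5.

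Several other large rises were in enzymes and in genes of cell shape and guidance. The membrane-binding annexin anxa2a read 6.79, 8.96 and 7.84 at 16 hpl, against 5.32, 4.91 and 5.19 at 8 hpl. Its 16 hpl arrays differed widely from each other but were all higher, and it rose 6.58-fold (2.72 ± 0.42, adjusted p = 0.00109). Transcripts of cyp27c1, the enzyme that turns vitamin A1 into vitamin A2 in zebrafish, stood at 7.96, 7.89 and 7.82 at 16 hpl, against 5.46, 5.91 and 4.15 at 8 hpl. This was a 6.57-fold rise (2.72 ± 0.31, adjusted p = 0.000135). With other settings or 1 array left out, the log2 change of cyp27c1 ran from 2.2 to 3.08. Arginase 2, arg2, which splits arginine into urea and ornithine in mitochondria, had 9.14, 9.0 and 8.92 at 16 hpl, against 6.90, 6.88 and 6.2 at 8 hpl, a 5.13-fold rise (2.36 ± 0.22, adjusted p = 1.91e-05). The neuropilin nrp2b, a co-receptor for semaphorins and VEGF, rose by 2.32 ± 0.29 on the log2 scale, and anos1b, which encodes a secreted anosmin, by 2.22 ± 0.24. The alpha-tubulin tuba1b had 8.17, 8.17 and 8.2 at 16 hpl, against 6.18, 6.40 and 6.00 at 8 hpl (3.97-fold, adjusted p = 1.22e-05). Its second probe set gave 2.11. Smaller rises followed in the kininogen gene kng1 (1.76 ± 0.23), the septin septin9a (1.80 ± 0.26) and the nuclear import factor nutf2 (1.76 ± 0.22). The second probe set of nutf2 gave 0.58 and was not called (adjusted p = 0.0629).

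The largest fall among named genes was in nfil3-5, a gene of the Nfil3 (E4bp4) family of clock-linked leucine zipper factors. Its values were 6.74, 6.43 and 6.81 at 16 hpl, against 10.75, 10.29 and 10.30 at 8 hpl. It was 13.8-fold lower at 16 hpl (-3.79 ± 0.30, adjusted p = 6.01e-06). The transcription factor sp5a, a Wnt target gene, had 4.58, 4.72 and 5.19 at 16 hpl, against 7.67, 6.90 and 7.0 at 8 hpl, and was 5.13-fold lower (-2.36 ± 0.29, adjusted p = 0.000204). The iron exporter ferroportin, slc40a1, had 6.60, 7.46 and 6.88 at 16 hpl, against 9.09, 9.49 and 9.08 at 8 hpl, and was 4.72-fold lower (-2.24 ± 0.22, adjusted p = 4.11e-05). In both genes each 16 hpl array lay well below each 8 hpl array. The syntaxin-binding gene stxbp6l fell by 2.46 on the log2 scale (SE 0.20), and the actin-binding repeat gene xirp1 fell by 2.22 (SE 0.29). Further falls were in ypel3, a small nuclear yippee-like gene (-2.07 ± 0.28), the calcineurin regulator rcan3 (-1.92 ± 0.35), the matrix glycoprotein tenascin R, tnr (-1.84 ± 0.30), and samd11l (-1.75 ± 0.28).

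Transcripts of 2 linker histones fell too. The H1 histone h1-10 had 6.86, 6.77 and 6.52 at 16 hpl, against 9.27, 9.60 and 8.63 at 8 hpl, which made it 5.46-fold lower (-2.45 ± 0.24, adjusted p = 3.44e-05). The H1-like gene histh1l1 had 6.69, 6.57 and 6.18 at 16 hpl, against 8.36, 9.02 and 8.41 at 8 hpl. Its change was -2.11 ± 0.48 (adjusted p = 0.0127), and the call was lost without 16 hpl replicate 3 (adjusted p = 0.0538) or 8 hpl replicate 2 (0.0519), within 0.0021 to 0.054 over its alternatives.

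Of 73 named cytosolic ribosomal proteins, the structural parts of the ribosome, 60 rose and none fell, with a median log2 change of 0.84. The count was 39 without 16 hpl replicate 3 and 68 without 8 hpl replicate 3, where the median was 1.07. The protein of the small subunit rps3 had 9.99, 10.30 and 10.26 at 16 hpl, against 9.10, 9.0 and 9.01 at 8 hpl. It rose 2.21-fold (1.14 ± 0.12, adjusted p = 9.52e-05). In the large subunit rpl5a, which joins the 5S RNA particle, had 11.62, 11.64 and 11.59 at 16 hpl, against 10.61, 10.65 and 10.52 at 8 hpl (2.03-fold). One member, the rpl7-like gene rpl7l1, stood near 0 (0.06, 95% interval -0.37 to 0.49). Whether rpl7l1 is a structural part of the ribosome was not checked. Averaged over the 73 genes, the list stood at 10.32, 10.48 and 10.78 on the 16 hpl arrays, against 9.38, 9.58 and 10.01 on the 8 hpl arrays. Replicate 3 was the highest array of both groups.

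Of the factors that assemble ribosomes in the nucleolus fewer were called. Of 70 named members 18 rose and none fell, with a median of 0.46. That share matches the 25.7% of all named genes. The count was 9 without 16 hpl replicate 3, 10 without 16 hpl replicate 1 and 11 without 8 hpl replicate 3. The nucleoplasmin npm3 rose by 0.92 ± 0.14 (adjusted p = 0.00109), the small-subunit processome parts pwp2h by 0.96 ± 0.16 (adjusted p = 0.0015) and imp3 by 1.41 ± 0.24 (adjusted p = 0.00195). In a test of the step from 8 to 16 hpl against the step from 0 to 8 hpl, 18 of the 70 rose less in the later step and none rose more. Without 8 hpl replicate 3, 13 rose less and none more. For comparison, 3.15% of all probe sets and 10.4% of named genes moved less, and 1.88% and 5.2% moved more. Here and below, moved more means a more positive signed change and moved less a more negative one, whatever the size of the movement. Such counts in the lists below are to be read against these shares. The list's median was 0.46 in the later step and 1.19 in the earlier one. The guanine nucleotide binding nucleostemin gene gnl3, for example, changed by 0.50 from 8 to 16 hpl and by 2.72 from 0 to 8 hpl (difference -2.22, adjusted p = 0.000365). In the ribosomal protein list 3 genes, with rps3 and rps27.1 among them, rose more in the later step. That share is below the 5.2% of named genes. The 1 that rose less was the rpl7-like gene rpl7l1. The medians of that list were 0.84 in the later step and 0.52 in the earlier one. The counts were 5 and 1 and the medians 1.07 and 0.30 without 8 hpl replicate 3, and the call of rps27.1 was lost without 8 hpl replicate 1 or 2 (adjusted p up to 0.0937). Both steps share the 8 hpl arrays, which enter them with opposite sign.

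**Figure D2:**
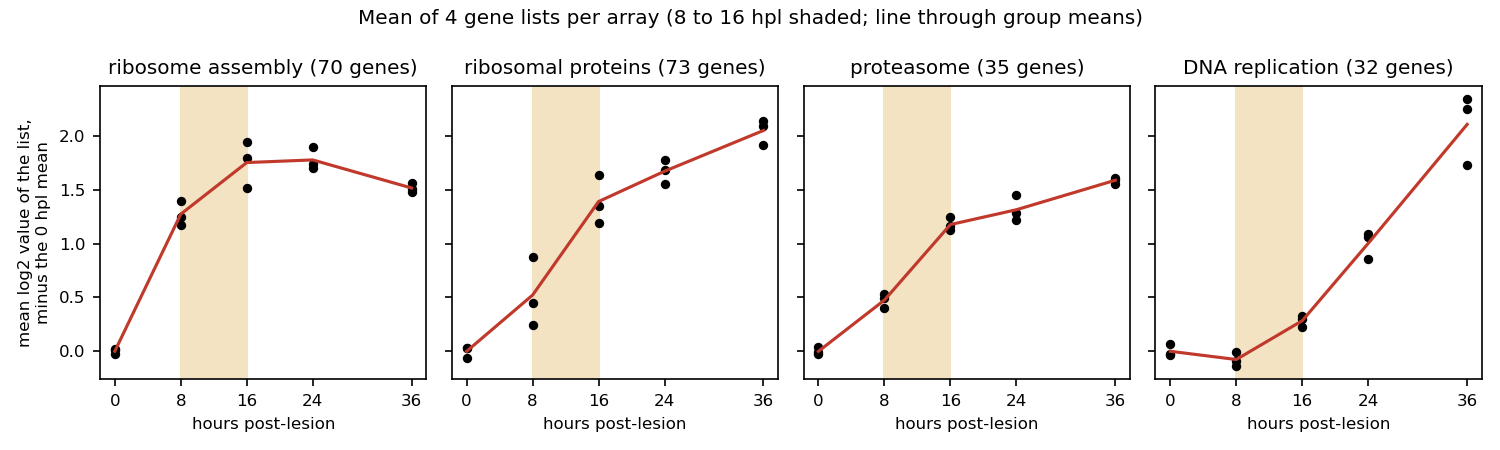
Mean log2 value of the named members of 4 gene lists per array, minus the mean of the 0 hpl arrays (y axis), against hours post-lesion, with the step from 8 to 16 hpl shaded and a line through the group means. Ribosome assembly stood at 1.18 to 1.40 already at 8 hpl, ribosomal proteins at 0.24 to 0.87, proteasome genes at 0.40 to 0.53, and DNA replication genes at -0.13 to -0.01.

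Translation factors and tRNA synthetases rose as well, but unlike the ribosomal proteins they had the larger median, 0.93, in the step before. Of these genes 6 moved less than in the step before and 2 more, or 5 and 1 without 8 hpl replicate 3. With all arrays, the share that moved less was near the 10.4% of named genes. The share that moved more was below their 5.2%. Of 61 named members 32 rose and none fell (median 0.62), with 16 rises without 16 hpl replicate 3, 21 without 8 hpl replicate 1, and 22 to 30 without any other single array. The elongation factor subunits eef1b2 and eef1g, which recharge the factor that brings tRNAs to the ribosome, rose by 1.28 ± 0.16 (adjusted p = 0.000247) and 1.19 ± 0.16 (adjusted p = 0.000479). The initiation factor subunits eif2s1 and eif2b3 rose by 0.96 ± 0.15 and 0.99 ± 0.14. One riser has the opposite role: eif4ebp3l, of the family that binds and restrains the cap-binding factor eIF4E, had 8.18, 8.6 and 8.21 at 16 hpl, against 6.94, 7.02 and 6.66 at 8 hpl (2.74-fold, adjusted p = 0.000342). Its 0 hpl mean was 8.27, so the 16 hpl arrays stood near the level of unlesioned fish. The 2 steps of this gene, 1.45 and -1.39, differed by 2.84 (adjusted p = 0.000131).

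In the list of endoplasmic reticulum (ER) folding, secretion entry and ER stress 17 of 33 rose and none fell (median 0.70), with 10 rises without 16 hpl replicate 1 or 2 and 11 without 8 hpl replicate 2. Parts of the translocon and of the oligosaccharyltransferase, which adds sugar chains to entering proteins, were among its largest rises. The translocon-associated gene ssr4 had 7.13, 7.50 and 6.33 at 16 hpl, against 5.38, 5.46 and 4.65 at 8 hpl (3.54-fold, adjusted p = 0.00197). Its partners ssr2 and ssr3 rose by 0.96 ± 0.12 and 1.22 ± 0.18, the oligosaccharyltransferase subunits dad1 and rpn2 by 1.41 ± 0.17 and 1.21 ± 0.18, and the disulfide oxidase ero1a by 1.22 ± 0.19. The ER chaperone hspa5 changed by 0.52 from 8 to 16 hpl (95% interval 0.16 to 0.87, adjusted p = 0.0685) and by 2.49 from 0 to 8 hpl, a difference of -1.97 (adjusted p = 0.000814). The unfolded protein response factor xbp1 changed by 0.67 and 2.95 over the same steps (difference -2.28, adjusted p = 0.0265), and this difference lost its call without 16 hpl replicate 3 or 8 hpl replicate 1 or 2 (adjusted p up to 0.152). In this list 6 genes moved less than in the step before and 2 more, and without 8 hpl replicate 3 the counts were 6 and 0. The changes of dad1, ssr2 and ssr3 exceeded those in the step from 16 to 24 hpl with all arrays in the fit, but none of these 3 calls held when any one of the 16 hpl arrays was left out (adjusted p up to 0.238, 0.152 and 0.233). The call of dad1 was lost without 8 hpl replicate 2 or 3 too. Such a rise beyond the following step was called for 0.284% of all probe sets and 1.38% of named genes.

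Of 35 proteasome genes, the subunits and assembly factors of the protease that degrades tagged proteins, 23 rose and none fell (median 0.70). The count was 11 without 16 hpl replicate 2 and 15 without 16 hpl replicate 1. The core subunit psma8 rose by 0.84 ± 0.13 (adjusted p = 0.0011), the core subunit psmb4 by 0.88 ± 0.14 and the regulatory subunit psmd13 by 1.12 ± 0.18. On average the list stood at 7.47, 7.51 and 7.60 on the 16 hpl arrays, against 6.84, 6.89 and 6.75 on the 8 hpl arrays, without overlap. Chaperones of cytosol and mitochondria had 19 rises and no fall among 30 (median 0.70, and 11 rises without 16 hpl replicate 3). They included the chaperonin ring subunit cct8 (0.72 ± 0.12), the cyclophilin ppid (1.01 ± 0.12) and the cytosolic hsp90aa1.2 (1.06 ± 0.18). Heat shock factor 2, hsf2, had 7.86, 7.80 and 8.10 at 16 hpl, against 6.43, 6.40 and 6.90 at 8 hpl (2.53-fold, adjusted p = 0.000927). It had moved by -1.22 in the step before, and the steps differed by 2.57 (adjusted p = 0.000497).

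Among splicing and RNA processing genes 14 of 31 rose (median 0.65, and 9 without 16 hpl replicate 1), with the Sm proteins snrpe at 0.93 ± 0.12 and snrpg at 0.97 ± 0.17. Of 46 genes of the mitochondrial ribosome and protein import 17 rose (median 0.49), led by the import receptor tomm20 (1.23 ± 0.19), but only 6 without 8 hpl replicate 3 and 8 to 10 without any one of the 16 hpl arrays. The respiratory chain and ATP synthase had 5 rises among 33 (median 0.39), a share below that of all named genes, with cox5ab at 0.85 ± 0.14. The respiratory count was 1 without 16 hpl replicate 2 or 8 hpl replicate 1, 2 without 16 hpl replicate 3, and 3 without 16 hpl replicate 1 or 8 hpl replicate 2. Nuclear pore and transport genes had 6 rises among 19, near the share of all named genes, and 3 without 16 hpl replicate 3 or 8 hpl replicate 3. The nucleotide, one-carbon and polyamine list had 7 among 25, also near that share, with the nucleoside diphosphate kinase nme2b.1 at 1.37 ± 0.15. Without 8 hpl replicate 3 that list had 4 rises. No member of these lists was called lower with all arrays in the fit. Chromatin genes had 6 rises and no fall among 18, again near the share of all named genes. The risers included the architectural protein hmga1a (0.79 ± 0.11) and the histone acetyltransferase scaffold trrap (0.98 ± 0.16). Without 16 hpl replicate 1 there were 2 rises.

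**Figure D3:**
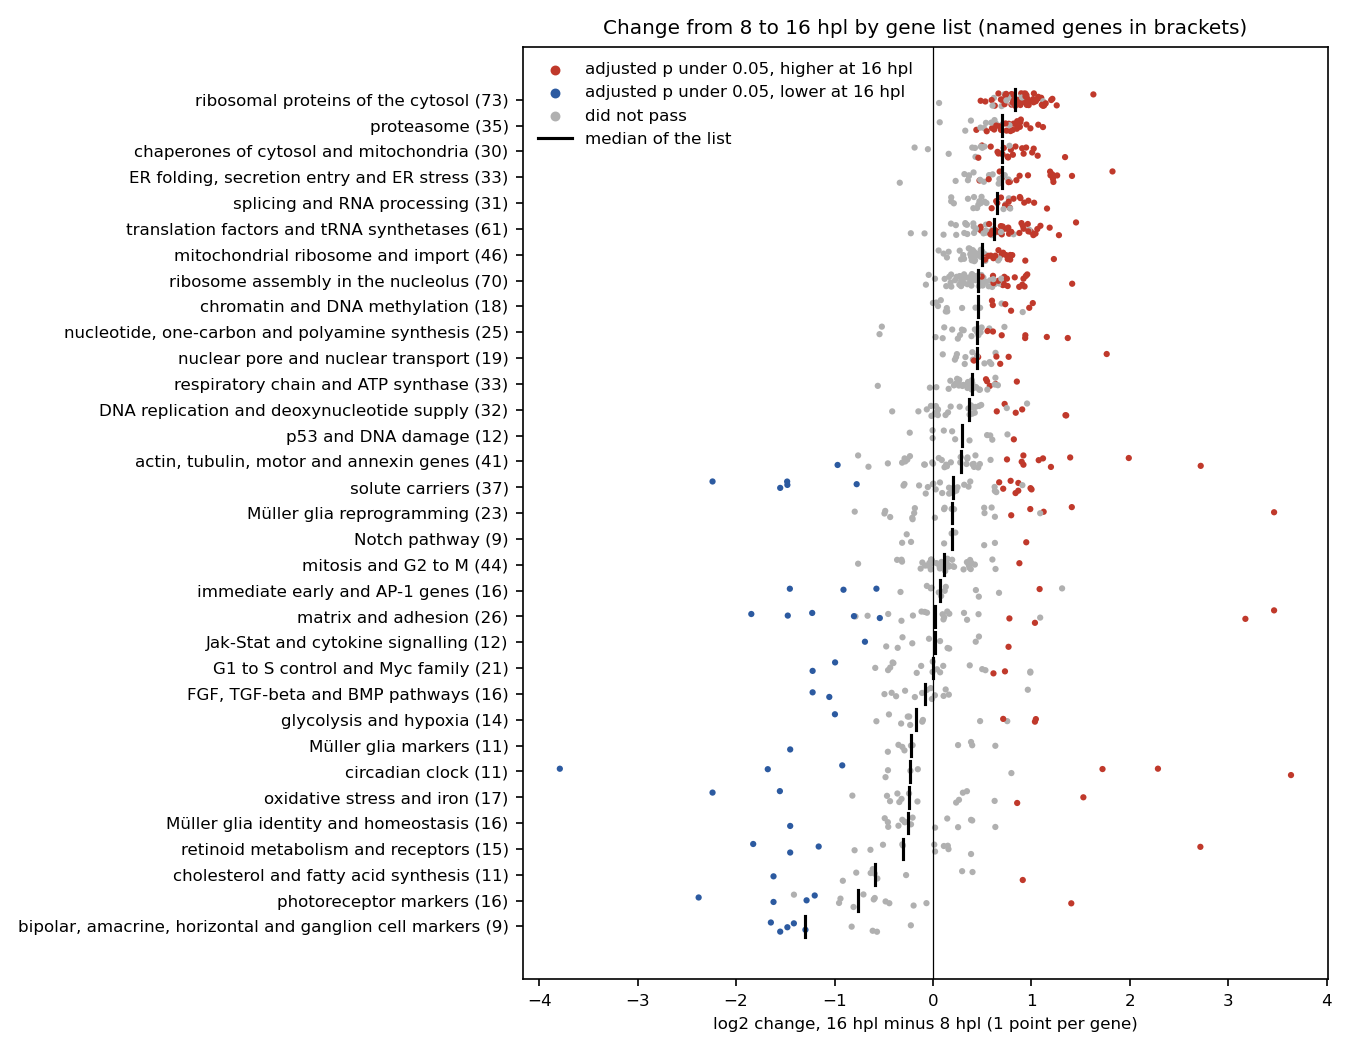
Log2 change between 16 and 8 hpl (x axis) of the named members of each gene list with at least 9 of them, 1 point per gene, red where called higher, blue where called lower and grey where not called, with a black line at the list's median. Medians run from 0.84 for ribosomal proteins to -1.30 for markers of bipolar, amacrine, horizontal and ganglion cells.

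Cell cycle genes had few calls. Of 32 genes of DNA replication and deoxynucleotide supply 6 rose and none fell (median 0.37), with 4 or 5 rises when any 1 array was left out. That share is below the share of all named genes. The origin recognition subunit orc6 had 4.77, 5.36 and 5.28 at 16 hpl, against 3.60, 3.78 and 3.99 at 8 hpl (1.35 ± 0.20, adjusted p = 0.000979). Its arrays did not overlap, but its 8 hpl values were below the array median. The dUTP-hydrolysing enzyme dut had 5.60, 5.88 and 6.07 at 16 hpl, against 5.11, 4.43 and 3.95 at 8 hpl (1.35 ± 0.27, adjusted p = 0.00512). Over its alternatives the change of dut lay between 1.08 and 1.66. The single-strand binding subunit rpa2 rose by 0.65 ± 0.13 and the origin subunit orc3 by 0.91 ± 0.20. The call of orc3 was lost without 16 hpl replicate 1 (adjusted p = 0.0562, within 0.0054 to 0.056 over its alternatives). For dut, rpa2 and the ribonucleotide reductase subunit rrm2 the step exceeded the one before. The differences were 2.32 (adjusted p = 0.0072), 1.47 (0.00132) and 1.79 (0.00703).

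The flap endonuclease fen1 (0.73 ± 0.19) and the rpa3 subunit (0.84 ± 0.22) were also called higher, but less firmly. The call of fen1 was lost when any of the 16 hpl arrays or 8 hpl replicate 1 or 3 was left out (adjusted p 0.0621 to 0.0831), and over all its alternatives the adjusted p lay between 0.021 and 0.083. That of rpa3 was lost without 16 hpl replicate 2 or 8 hpl replicate 2 or 3 (adjusted p 0.0693 to 0.117, within 0.0058 to 0.12 over its alternatives). The replication clamp pcna, the usual marker of dividing Müller glia, had 6.47, 6.30 and 6.62 at 16 hpl, against 6.08, 6.14 and 6.09 at 8 hpl. Its arrays did not overlap, yet the change of 0.36 did not pass (95% interval 0.05 to 0.67, adjusted p = 0.159). The helicase subunit mcm5 changed by 0.05 (-0.47 to 0.57) and the mitotic kinase ttk by 0.21 (-0.11 to 0.54), and neither passed. Among 44 genes of mitosis and G2 to M 1 rose, the lamin lmnb1 (0.88 ± 0.18, adjusted p = 0.006), and none fell. In 33 of those 44 both group means were below the array median. In the list of G1 to S control the dominant-negative helix-loop-helix gene id3 had 7.12, 7.11 and 7.21 at 16 hpl, against 8.27, 8.49 and 8.35 at 8 hpl (-1.22 ± 0.16, adjusted p = 0.000334). It changed by 1.22 in the following step, and the steps differed by -2.44 (adjusted p = 0.00327).

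The Myc family member mycla, a growth regulator, fell too (-0.99 ± 0.18, adjusted p = 0.00334), after 1.73 in the step before. The related mych changed by -0.43 (95% interval -0.99 to 0.12) and did not pass. Cyclin D1, ccnd1, which drives entry into the cycle, was called higher (0.61 ± 0.17, adjusted p = 0.0346) but lost the call without any 1 of the 6 arrays (adjusted p 0.0574 to 0.14, within 0.016 to 0.14 over its alternatives). The growth-arrest gene gadd45bb (0.73 ± 0.19) lost it without 16 hpl replicate 1 or 3 or 8 hpl replicate 3 (adjusted p 0.0924 to 0.106, within 0.016 to 0.11).

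Among named genes, clock genes gave the largest movements in both directions. Among 11 named members 3 rose and 3 fell. The repressors ciarta, bhlhe41 and nr1d2b were higher at 16 hpl. Values of bhlhe41 were 9.25, 9.30 and 8.98 at 16 hpl, against 6.81, 7.02 and 6.84 at 8 hpl (4.87-fold, adjusted p = 0.000299). Those of nr1d2b, a Rev-erb nuclear receptor, were 9.97, 9.92 and 9.68 at 16 hpl, against 7.81, 8.83 and 7.77 at 8 hpl (3.3-fold, adjusted p = 0.000479). Its second, dimmer probe set gave 0.53 and was not called (adjusted p = 0.389). The nuclear receptor rorcb, of the Ror family that acts on the same DNA elements as the Rev-erbs, had 2.64, 3.12 and 2.64 at 16 hpl, against 4.75, 4.68 and 3.99 at 8 hpl (-1.68 ± 0.20, adjusted p = 0.000177). Both group means of rorcb were below the array median. The melatonin-pathway enzyme gene aanat2 was called lower (-0.92 ± 0.22, adjusted p = 0.0156), a call lost without 16 hpl replicate 2 (0.0612) or 8 hpl replicate 2 (0.0718), within 0.00055 to 0.072 over its alternatives. The period gene per3 changed by 0.80 (95% interval 0.01 to 1.58, adjusted p = 0.243), cry1a by -0.23 and tefa by -0.15.

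Over the whole course the group means of ciarta at 0, 8, 16, 24 and 36 hpl were 8.27, 5.24, 8.87, 8.64 and 8.79. Those of nfil3-5 were 7.43, 10.45, 6.66, 6.96 and 6.83. In both genes the 8 hpl mean was the one farthest from the other 4. The step from 8 to 16 hpl differed from the step before by 6.67 in ciarta and -6.80 in nfil3-5 (adjusted p = 2.62e-06 each), and by 4.5 in bhlhe41, 4.22 in nr1d2b and -2.97 in rorcb. It differed from the following step as well in ciarta (3.87, adjusted p = 0.00331), nfil3-5 (-4.09, adjusted p = 0.00329), bhlhe41 (2.75, adjusted p = 0.0313) and rorcb (-1.93, adjusted p = 0.0273). With any 1 of the 8 or 16 hpl arrays left out ciarta and nfil3-5 were still called there (adjusted p up to 0.0342 and 0.0331). Leaving out a 24 hpl array was not tested. The call of bhlhe41 was lost without any one of the 16 hpl arrays (up to 0.163) and that of rorcb without 16 hpl replicate 1 or 3 (up to 0.166).

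**Figure D4:**
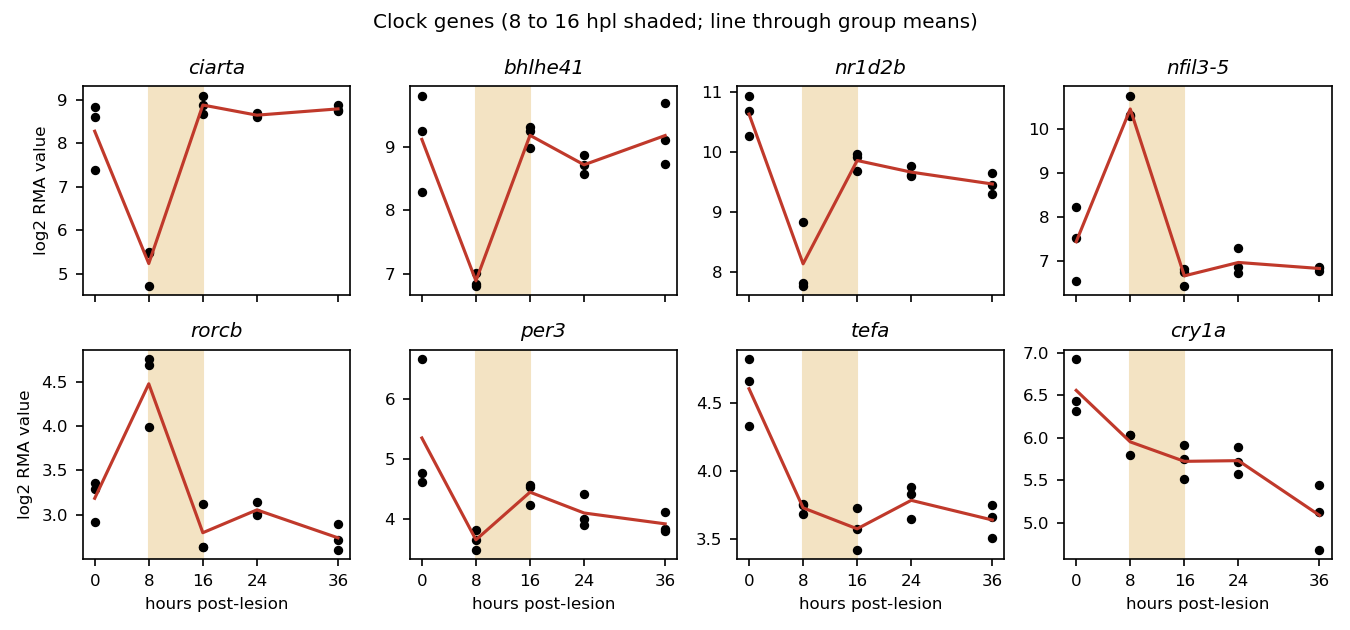
Log2 RMA value (y axis) of 8 clock genes on each of the 15 arrays against hours post-lesion, with the step from 8 to 16 hpl shaded and a line through the group means. The 8 hpl arrays lie at the bottom of the panels of ciarta, bhlhe41 and nr1d2b and at the top of those of nfil3-5 and rorcb, while tefa and cry1a show no such turn.

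Of 23 named genes known from Müller glia reprogramming 5 were higher and none lower, a share below the 25.7% of all named genes, and 3 were higher without 16 hpl replicate 1. Beside mmp9 they were the zinc finger factor zic2b, with 6.09, 6.56 and 6.12 at 16 hpl, against 5.07, 4.90 and 4.58 at 8 hpl (2.66-fold, adjusted p = 0.000943), and the proneural factor ascl1a. Values of ascl1a were 7.91, 7.61 and 7.69 at 16 hpl, against 6.64, 7.16 and 6.06 at 8 hpl. It rose 2.18-fold (1.12 ± 0.22, adjusted p = 0.00565), and its log2 change lay between 0.809 and 1.395 over its alternatives. The SoxC factor sox4a rose by 0.79 ± 0.18 (adjusted p = 0.0112), and lost the call without 16 hpl replicate 1 (0.0632, within 0.0044 to 0.063 over its alternatives). The growth factor hbegfa rose by 0.99 ± 0.27 (adjusted p = 0.0341), a call lost without any 16 hpl array or without 8 hpl replicate 1 or 3 (adjusted p 0.0604 to 0.144, within 0.013 to 0.14). Of a panel of 32 genes used in work on retinal regeneration 26 were named here, of which 5 rose, 2 fell and 19 did not pass. Genes with intervals on both sides of 0 included sox2 (-0.50 to 0.09), tgif1 (-0.28 to 0.32), glula (-0.62 to 0.04) and rlbp1a (-0.68 to 0.05). The Notch ligand jag2b rose (0.95 ± 0.19, adjusted p = 0.00636), the 1 call among 9 Notch pathway genes.

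Early stress and cytokine genes had few rises in this step. Among 16 immediate early and AP-1 genes 1 rose, 3 fell, and 8 moved less than in the step before. Of all named genes 25.7% rose, 6.91% fell and 10.4% moved less, and of all probe sets 5.48%, 3.12% and 3.15%. The list had 1 fall without 16 hpl replicate 2 or 3 or 8 hpl replicate 2 or 3. In this list the stress factor atf3 had 6.64, 5.94 and 6.53 at 16 hpl, against 7.05, 7.46 and 7.32 at 8 hpl. It fell by 0.91 on the log2 scale (adjusted p = 0.0372) and had moved by 2.50 in the step before (difference -3.41, adjusted p = 0.000361). That fall lost its call without 16 hpl replicate 2 or 3 or 8 hpl replicate 2 or 3 (adjusted p 0.0675 to 0.17, within 0.01 to 0.17). The other falls were klf11a (-1.45 ± 0.18, adjusted p = 0.000272) and klf6a (-0.57 ± 0.17), which lost its call without any 1 array other than 8 hpl replicate 1 (adjusted p 0.0648 to 0.189, within 0.0051 to 0.25). The phosphatase dusp5, a brake on ERK signalling, rose by 1.08 ± 0.23 (adjusted p = 0.00757).

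The suppressor of cytokine signalling socs3b had 10.91, 10.74 and 10.58 at 16 hpl, against 10.66, 10.80 and 10.27 at 8 hpl. The groups overlapped (0.16, 95% interval -0.35 to 0.68, adjusted p = 0.806). Its step before was 5.13, and the difference of -4.96 was, after nfil3-5, the most negative among the genes examined (adjusted p = 7.5e-06). In the Jak-Stat list of 12 genes 1 rose, 1 fell and 4 moved less than in the step before, to be read against the same shares of named genes. The faller was the interferon factor irf9 (-0.69 ± 0.19, adjusted p = 0.0303). Leaving out 16 hpl replicate 1 or 2 or 8 hpl replicate 1 or 2 lost that call (adjusted p 0.083 to 0.134, within 0.0012 to 0.18). The riser was bcl6ab (0.77 ± 0.23, adjusted p = 0.047), lost without any 1 array other than 8 hpl replicate 2 (adjusted p 0.0594 to 0.181, within 0.013 to 0.18). The signal transducer stat3 changed by -0.21 (95% interval -0.73 to 0.30, adjusted p = 0.733). Without 8 hpl replicate 3 it was called lower (-0.61, adjusted p = 0.0246), within 0.025 to 0.97 over its alternatives. The connective tissue growth factor ctgf changed by 1.31 and missed the threshold (95% interval 0.42 to 2.2, adjusted p = 0.0668). It was called with array weights (adjusted p = 0.0336), with the 6 arrays alone (0.0366) and with the dimmest 25% of probe sets left out (0.0489), within 0.0052 to 0.25 over its alternatives.

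Matrix genes moved both ways, with 4 rises and 5 falls among 26, and 2 or 3 rises and 3 to 5 falls when any 1 array was left out. Beside mmp9 and col15a1 the risers were the collagen prolyl hydroxylases p4ha1b (1.04 ± 0.28, adjusted p = 0.033) and p4ha2 (0.78 ± 0.23, adjusted p = 0.0477). Either call was lost without 8 hpl replicate 3 (adjusted p = 0.0798 for p4ha1b and 0.2 for p4ha2), and without 4 or more of the 6 single arrays. The falls included tgfbi, a secreted adhesion protein, with 2.80, 2.92 and 3.09 at 16 hpl, against 4.73, 4.35 and 4.14 at 8 hpl (-1.47 ± 0.15, adjusted p = 5.85e-05), where both group means were below the array median. The falls also included tnr and col15a1b, named above, the integrin subunit itgb5 (-0.80 ± 0.16, adjusted p = 0.00582) and the collagen IX chain col9a2 (-1.23 ± 0.29), whose call was lost without 16 hpl replicate 1 or 2 or 8 hpl replicate 3 (adjusted p 0.0698 to 0.0732, within 0.0055 to 0.073). Of the 26 genes 8 had a more positive signed change than in the step before, which holds smaller falls as well as rises. One of them, the lysyl oxidase-like gene loxl2b, changed by 0.11 (95% interval -0.48 to 0.70) after -3.37, and the difference between the steps was 3.48 (adjusted p = 0.000538).

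In the cytoskeletal list of 41 genes 10 rose, near the share of all named genes, and 1 fell. Beside anxa2a and tuba1b the alpha-tubulin tuba5 rose by 1.2 ± 0.13 (adjusted p = 0.000111) and the S100 protein s100u by 1.39 ± 0.24 (adjusted p = 0.00201). One of the 10, krtcap2, is an oligosaccharyltransferase component that only its symbol placed there (1.12 ± 0.16). The dynein light chain dynll2b fell by 0.97 on the log2 scale (adjusted p = 0.0214), a call lost without 16 hpl replicate 3 or 8 hpl replicate 1 (adjusted p 0.0782 to 0.103, within 0.0095 to 0.1). Of 16 genes of Müller glia identity and homeostasis none rose and 1 fell, the retinoic acid-degrading enzyme cyp26a1. It had 8.04, 7.73 and 7.55 at 16 hpl, against 9.45, 9.47 and 8.75 at 8 hpl (2.73-fold lower, adjusted p = 0.00109). The retinaldehyde reductase dhrs3a was lower as well (-1.16 ± 0.29, adjusted p = 0.0193), lost without 16 hpl replicate 1 or 3 or 8 hpl replicate 2 (adjusted p 0.0683 to 0.0882, within 0.00099 to 0.088). With cyp27c1 as the riser, the 15 retinoid genes gave 1 rise and 3 falls.

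Metabolic and signalling lists held calls in both directions, to be read against the shares of all named genes. Glycolysis and hypoxia had 3 rises and 1 fall among 14 genes, and 1 rise and 1 fall without 8 hpl replicate 3. Cholesterol and fatty acid synthesis had 1 rise and 1 fall among 11, with a median of -0.59, and 6 falls without 8 hpl replicate 1. The Wnt pathway had 2 falls and no rise among 6, and 1 fall without 16 hpl replicate 1 or 2 or 8 hpl replicate 2. The gene dkk1b, called lower with all arrays, lost its call in the same fits (adjusted p 0.0541 to 0.0736, within 0.0011 to 0.074 over its alternatives). Thioredoxin txnb had 6.44, 6.72 and 6.72 at 16 hpl, against 5.05, 5.13 and 5.12 at 8 hpl, a 2.88-fold rise (adjusted p = 0.000178). The glutathione transferase gsto1 had 4.81, 5.12 and 4.75 at 16 hpl, against 6.11, 6.90 and 6.33 at 8 hpl, and was 2.94-fold lower (adjusted p = 0.00166). With slc40a1 and the stress sensor keap1a they made 2 rises and 2 falls among 17 genes of oxidative stress and iron. The call of keap1a was lost without any 1 array other than 8 hpl replicate 2. The glycolytic enzyme pgam1a rose by 1.04 ± 0.14 (adjusted p = 0.000334), and the glycogen phosphorylase pygl was lower (-1.0 ± 0.19, adjusted p = 0.00402). The FGF receptor fgfr2 was lower as well (-1.05 ± 0.20, adjusted p = 0.00452). Solute carriers had 8 rises and 5 falls among 37, and 4 to 8 rises and 2 to 4 falls when any 1 array was left out. The zinc transporter slc39a7 rose by 0.99 ± 0.17 (adjusted p = 0.00251).

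Several transcripts of photoreceptors and inner retinal neurons were lower at 16 hpl. The rod transducin gamma subunit gngt1 had 7.73, 7.21 and 7.37 at 16 hpl, against 9.35, 10.27 and 9.83 at 8 hpl, and was 5.2-fold lower (-2.38 ± 0.42, adjusted p = 0.00247). The photoreceptor guanylate cyclase gucy2f was 4.19-fold lower (-2.07 ± 0.29), and rbp3, which carries retinoids between photoreceptors and their neighbours, 3.55-fold lower (-1.83 ± 0.34). Of 16 photoreceptor markers, a list that holds gngt1 but neither gucy2f nor rbp3, 4 fell, 1 rose and the median was -0.76. Beside gngt1 the falls were rod transducin gnat1 (-1.28 ± 0.31), rhodopsin, rho (-1.2 ± 0.29), and the fatty acid elongase elovl4b (-1.62 ± 0.38). The cone genes pde6c, arr3a and gnat2 changed by -0.07, -0.20 and -0.48 and were not called. The riser was nr2e3, a nuclear receptor of rod precursors, with 6.21, 6.35 and 6.47 at 16 hpl, against 5.45, 4.54 and 4.83 at 8 hpl (2.65-fold, adjusted p = 0.00269). Without 8 hpl replicate 3 the list had 7 falls and 1 rise, without 8 hpl replicate 2 it had 1 fall, and without 16 hpl replicate 1 or 2 it had 2. The calls of rho, gnat1 and elovl4b were each lost without 8 hpl replicate 2 (adjusted p 0.0717, 0.0801 and 0.0566), and over their alternatives the adjusted p lay within 0.00044 to 0.072, 0.00076 to 0.08 and 0.00024 to 0.057.

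Of 9 markers of bipolar, amacrine, horizontal and ganglion cells 5 fell and none rose, with a median of -1.30. They were the GABA-synthesising enzymes gad2 (-1.65 ± 0.42) and gad1b (-1.30 ± 0.28), the GABA transporters slc6a1a (-1.55 ± 0.35) and slc6a1b (-1.48 ± 0.34), and the bipolar cell factor vsx1 (-1.41 ± 0.29). The second, dimmer probe set of slc6a1b gave -0.94 and was not called (adjusted p = 0.174). For gad1b the values were 8.08, 8.13 and 7.94 at 16 hpl, against 9.53, 9.69 and 8.82 at 8 hpl (2.45-fold lower, adjusted p = 0.00885). For gad2 they were 5.81, 6.30 and 5.31 at 16 hpl, against 8.49, 7.40 and 6.48 at 8 hpl. The 8 hpl arrays of gad2 differed by 2 units among themselves, with replicate 3 the lowest. The list had 2 falls without 16 hpl replicate 3, and 3 without 16 hpl replicate 1 or 8 hpl replicate 1, while gad1b and vsx1 were called under every alternative tried. In the step before, the median of the 9 genes was 0.01, or 0.28 without 8 hpl replicate 3. In that step gad2, slc6a1a, gad1b and vsx1 had moved by 1.35, 1.06, 1.18 and 1.53. In these 4 the steps differed (adjusted p 0.0263, 0.0205, 0.00654 and 0.00256), and in the other members no difference was called. The differences of gad2, slc6a1a and gad1b were not called without 8 hpl replicate 2, and those of gad2 and slc6a1a were not called without 8 hpl replicate 1 either, nor that of gad2 without 16 hpl replicate 3. In sorted cell pools fewer contributing cells and less RNA per cell cannot be told apart. The summed linear value of the photoreceptor markers was 1541 to 1806 at 16 hpl, against 2897 to 5373 at 8 hpl. That of the other neuron markers was 1076 to 1393 at 16 hpl, against 1830 to 3736 at 8 hpl. The part of these cells in the changes of other genes was not tested.

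**Figure D5:**
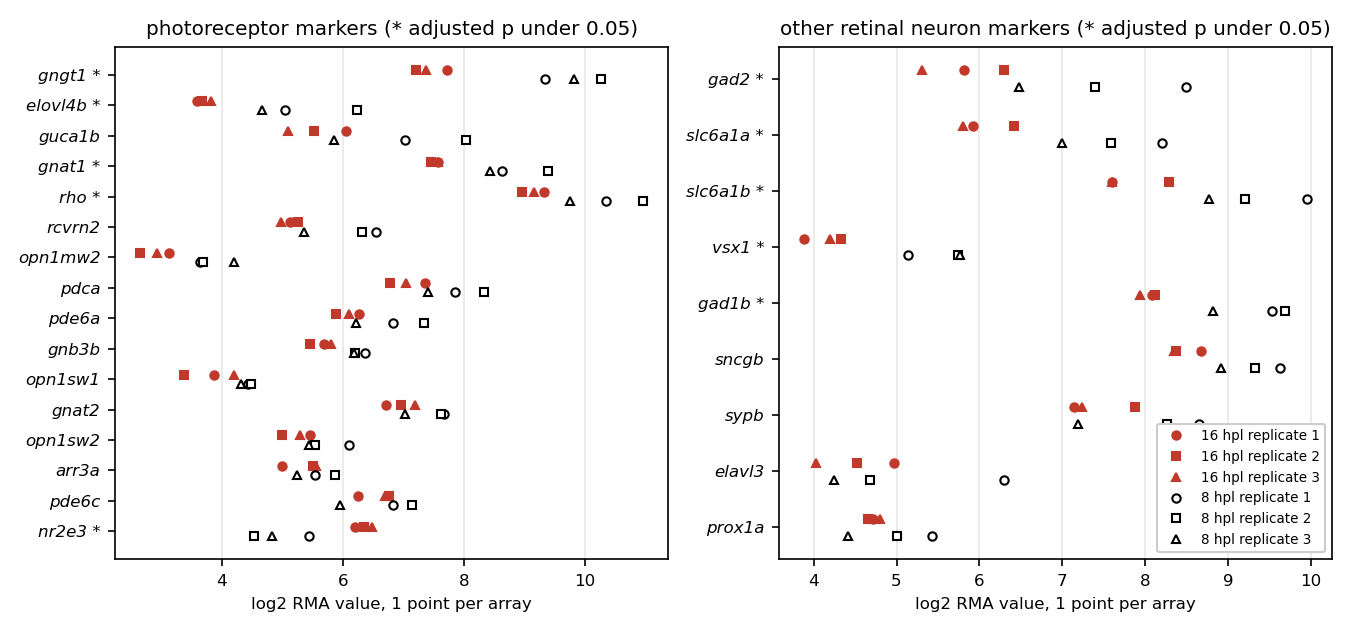
Log2 RMA value (x axis) of the named photoreceptor markers (left) and markers of other retinal neurons (right) on each array, 16 hpl filled and 8 hpl open, with a marker shape for each replicate and a star at genes called at an adjusted p under 0.05. For gngt1 the 16 hpl arrays lie at 7.73 or below and the 8 hpl arrays at 9.35 or above, while nr2e3 shows the reverse order.

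The last question was which changes set the step apart from the 8-hour steps on either side. Against the step from 0 to 8 hpl, 291 probe sets moved more and 488 less. As above, more means a more positive signed change and less a more negative one, not a larger or smaller movement. The median of this difference over all probe sets was 0.12, and it was -0.17 with scaling on the hybridisation controls and -0.02 with median centring. These settings gave 75 that moved more and 555 less, and 213 and 676. Without 8 hpl replicate 3 the counts were 161 and 518. Named genes with the largest positive differences included, after the clock genes, the threonine dehydrogenase tdh, with 8.75, 8.71 and 8.32 at 16 hpl, against 7.82, 7.60 and 6.86 at 8 hpl. It rose by 1.17 ± 0.21 (adjusted p = 0.00266) after -2.70 in the step before. The difference in arg2 was 3.13 (adjusted p = 0.000162), with steps of 2.36 and -0.77. The hypoxia-induced prolyl hydroxylase egln3 had a difference of 3.32 (adjusted p = 0.000737), while its own step of 0.75 was not called (adjusted p = 0.115, within 0.047 to 0.41 over its alternatives, of which the replicate block on the 6 arrays alone called it). Negative differences were led, after nfil3-5 and socs3b, by xirp1, whose steps were -2.22 and 2.1 (difference -4.33, adjusted p = 0.000131). The complement gene c6.2 had a step of 0.47 after 4.37, and it was not called between 16 and 8 hpl.

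Against the step from 16 to 24 hpl, 44 probe sets moved more in signed change and 24 less (0.155%, and 0.553% of named genes). The ER translocation gene tram1 had 9.92, 9.95 and 9.70 at 16 hpl, against 8.80, 8.84 and 8.55 at 8 hpl. It rose 2.19-fold (1.13 ± 0.17, adjusted p = 0.000821) and changed by -0.78 in the following step, a difference of 1.91 (adjusted p = 0.00849). The collagen col15a1 and arg2 also moved more than in the following step, with differences of 3.47 (adjusted p = 0.00805) and 2.38 (0.0107), as did the nucleotide kinase gene ak3l1 (1.90, adjusted p = 0.0374). The ligase-like gene rimkla had 5.03, 4.99 and 4.98 at 16 hpl, against 6.65, 6.33 and 6.11 at 8 hpl (-1.37 ± 0.15, adjusted p = 0.000104). It changed by 0.78 in the following step (difference -2.14, adjusted p = 0.00329). The kinase gene stk17a showed the same order (-1.63 ± 0.22 after 1.77, then 0.51). The counts against the following step rest on the 16 hpl arrays, which both steps share. Leaving out 16 hpl replicate 1, 2 or 3 left 3, 5 and 1 probe sets that moved more and 4, 7 and 5 that moved less, and leaving out 8 hpl replicate 3 left 29 and 28. The calls of tram1, arg2, ak3l1 and stk17a there were lost without any one of the 16 hpl arrays (adjusted p up to 0.0834, 0.0845, 0.181 and 0.156), and that of col15a1 without replicate 3 (0.0678). The call of ak3l1 was lost without any one of the 8 hpl arrays too. Hybridisation control scaling gave 27 and 4, and repeated quantile normalization 23 and 33.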

How the data were processed

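Gene expression was measured on Affymetrix zebrafish arrays, 15 in all, from 20 ng of RNA amplified and labelled with NuGEN reagents, per the labels' protocols. The authors deposited log2 values made with RMA, per the submitters' processing notes, whose implementation is not given in the sources used here. Quantile normalization inside RMA can hide a shift shared by most transcripts. The authors' deposited table of comparisons holds signed fold scores against 0 hpl and p-values, whose test is not stated. It was used only to pair probe sets with genes, with symbols updated through RefSeq synonyms. Of 15617 probe sets, 115 controls were left out. limma 3.58.1 (R 4.3.3) was fitted to all 15 arrays with a coefficient per time, so that all times share an estimate of spread (10 residual and 5.45 prior degrees of freedom). Adjusted p-values are Benjamini-Hochberg over 15502 probe sets, for the step and for its differences from the adjoining steps. Intervals are 95% and unadjusted. A gene is shown by its brightest probe set. Array number limits precision. The fit was tested on simulated data.

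The genes named are the 15 largest rises and falls with arrays that do not overlap, up to 6 called members with the smallest p of each list and those against its majority, a regeneration panel, and the 8 largest differences from each adjoining step in each direction. Other genes, such as rpl7l1, rps27.1, gnl3, hspa5, xbp1, rrm2, krtcap2, col15a1b, per3, cry1a, tefa and the cone genes, were chosen after their values were seen. The members and lists were chosen with earlier results of these data known. Alternatives covered scaling, dim probe sets, array weights, variance moderation, samples, blocks, thresholds and single arrays left out. Same-numbered replicates of 16 and 8 hpl deviated from their group means with correlations of 0.22, -0.04 and 0.32. Differently numbered ones had correlations of -0.29 to 0.15, below those of replicates 1 and 3. These correlations cannot decide whether the numbers mark pairs. The numbers were not taken as pairs in the main fit, and fits with a replicate block are given below. Whether same-numbered replicates shared a batch was not tested. Some genes that the rule names are not reported here.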

Additional observations from a re-analysis of the deposited data

Results flagged for a closer look

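Beside the genes, 2 control probe sets that enter no comparison stood out on 8 hpl replicate 3. AFFX-Dr-AF292559-1_at read 4.34 there on the log2 scale, against at most 2.54 on the unlesioned 0 hpl arrays, and AFFX-Dr-M62653-1_at read 4.65, against at most 2.72. On 36 hpl replicate 2 the same probe sets read 4.54 and 4.46. On the other 13 arrays they lay between 2.33 and 2.79.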

How the results depend on the processing

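The 1332 calls (849 higher, 483 lower) became 2078 with array weights (847 lower), 806 with the 6 arrays alone (490 higher, 316 lower), 846 with hybridisation control scaling (234 lower), 550 at an adjusted p under 0.01 (345 higher, 205 lower), 377 at 2-fold or more (178 higher, 199 lower), and 785 to 1228 with 1 array left out (503 to 829 higher, 248 to 487 lower). Against the step before, the 291 that moved more and 488 less in signed change became 520 and 850 with array weights, and 101 and 239 at 0.01. Hybridisation control scaling gave 75 that moved more, and leaving out 1 array gave 161 to 278 and 294 to 518. Against the step after, 44 and 24 became 278 and 158 with array weights, 27 and 4 with hybridisation control scaling, 10 and 5 at 0.01, and 1 to 58 and 4 to 28 with 1 array left out. Repeated quantile normalization gave 23 that moved more. Over all gene lists other than the cell marker lists, 273 rises became 171 with the 6 arrays alone and 181 to 226 with 1 array left out. The 29 falls became 51 with array weights and 19 to 31 with 1 array left out.

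With the replicate block the step had 1256 calls on all 15 arrays (812 higher, 444 lower) and 1274 on the 6 arrays (788 higher, 486 lower), and the step after was exceeded by 22 and undercut by 12. On the 6 arrays the block also called ctgf (adjusted p = 0.00515, within 0.0052 to 0.25 over its alternatives) and egln3 (0.0474, within 0.047 to 0.41), which were not called without it on all arrays. The same block called glulb higher too (0.0362, within 0.036 to 0.31), and no other setting did. Same-numbered arrays did not deviate together in every pair. Genes that changed sign were not called with all arrays. Without 8 hpl replicate 3 tgif1 was -0.0944, and it was -0.0674 without 16 hpl replicate 1, -0.0141 with array weights and -0.0793 with repeated quantile normalization. With 1 array left out, the log2 change ran over -0.116 to 0.796 for c6.2, -0.102 to 0.240 for loxl2b, -0.0166 to 0.104 for mcm5, -0.0414 to 0.264 for sox11b, -0.608 to 0.0371 for stat3 and -0.0944 to 0.125 for tgif1. The cause of these shifts was not tested. RMA carries no detection call, and 95 called probe sets had both group means below the array median.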
